A study of Homo sapiens with 15 samples.

Results

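A set of 10 genes was chosen by name for their part in silent chromatin, and all of them are in the count table of 57272 genes and among the 15799 genes with enough reads to be tested. They encode the 3 heterochromatin protein 1 (HP1) paralogs CBX1 (HP1 beta), CBX3 (HP1 gamma) and CBX5 (HP1 alpha), the enzymes SUV39H1, SUV39H2, SETDB1, EHMT1 (GLP) and EHMT2 (G9a), which methylate lysine 9 of histone H3 (H3K9), the corepressor TRIM28 (KAP1) and the maintenance DNA methyltransferase DNMT1. RNA was sequenced from MRC-5 cells, a line of human fetal lung fibroblasts, in 5 conditions with 3 libraries each, all grown at 5% oxygen. Young cells, at population doubling 30, carried an empty lentiviral vector that expresses GFP (young EV), a vector that also expresses the telomere-binding protein TRF2 (young TRF2), or the empty vector together with an siRNA against LMNB1 (siLMNB1), the gene of the nuclear lamina protein lamin B1. Senescent cells, infected before they stopped dividing and collected at their growth plateau, carried the empty vector (senescent EV) or the TRF2 vector (senescent TRF2). Per the study, senescent TRF2 cells stopped dividing after more population doublings than senescent EV cells. They also carried TRF2 for longer than young TRF2 cells. In senescent cells and in the interaction, TRF2 cannot be told apart from these differences. Every condition except siLMNB1 received a control siRNA, and all cells come from 1 line. The study describes counts of young and senescent cells as those of biological replicates and the other conditions as done in triplicate, and p-values measure the spread between these libraries.

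HP1 proteins read H3K9 methylation: their chromodomain binds di- and trimethylated H3K9, and their chromoshadow domain dimerizes and recruits partners. SUV39H1 and SUV39H2 trimethylate H3K9 in pericentromeric and telomeric heterochromatin, SETDB1 does so at sites to which KRAB zinc finger proteins bring TRIM28, and EHMT1 and EHMT2 act as a heterodimer that places mono- and dimethylation in euchromatin. DNMT1 copies DNA methylation after replication and is guided by UHRF1, which reads H3K9 methylation. In senescent fibroblasts the nuclear lamina loses lamin B1 and heterochromatin is rearranged, and transcripts of replication-linked chromatin factors are known to depend on whether cells divide.

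Of the 10 genes, 9 have RefSeq promoter entries (GRCh38.p14), with 13 start sites in all. The window of 250 bases before to 50 after each start was searched on both strands for letters found at genes that follow the cell cycle, namely an E2F motif (TTTCCCGC, TTTCGCGC, TTTGCCGC or TTTGGCGC), a cell cycle homology region or CHR (TTTGAA or TTCGAA) and a CCAAT box (CCAAT). Windows of 4 genes that were lower in senescent cells are printed from 100 bases before the start to 20 after it, 5′ to 3′ on the gene's strand, because they hold such letters close to the start, with the matched letters in capitals.
CBX3, chr7:26201343-26201462, plus strand: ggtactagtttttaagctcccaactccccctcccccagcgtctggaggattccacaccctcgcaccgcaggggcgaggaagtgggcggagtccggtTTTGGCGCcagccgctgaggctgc
DNMT1, chr19:10194934-10195053, minus strand: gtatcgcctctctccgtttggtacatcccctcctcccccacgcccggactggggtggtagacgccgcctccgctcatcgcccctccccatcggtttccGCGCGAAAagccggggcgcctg
SUV39H2, chr10:14878766-14878885, plus strand: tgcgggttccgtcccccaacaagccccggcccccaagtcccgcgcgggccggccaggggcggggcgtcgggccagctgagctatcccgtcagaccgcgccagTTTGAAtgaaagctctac
CBX5, chr12:54280103-54280222, minus strand: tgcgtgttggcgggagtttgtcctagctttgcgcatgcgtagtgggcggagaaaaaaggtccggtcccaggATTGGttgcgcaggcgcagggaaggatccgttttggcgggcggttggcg
Counted with the start as position 1, the E2F letters of CBX3 begin at -4, those of DNMT1 at -2 (there on the opposite strand), the CHR letters of SUV39H2 at 3 and the CCAAT letters of CBX5 at -29 (also on the opposite strand). None of these matches overlaps another motif. The E2F letters stood in 3.31% of the 35116 RefSeq promoter windows of this length, the CHR letters in 16.4% and CCAAT in 34.6%. The 2 other RefSeq starts of CBX5 have CCAAT at -203 and -162. Among the remaining members, one of the windows of SUV39H1, which was also lower in senescent cells, holds CCAAT at -38 but is not printed. No window of CBX1, SETDB1, EHMT1 or EHMT2 holds any of the 3 motifs. A match of letters is a description of the sequence and does not show that a factor binds there. As the printed windows were picked for their matches, they do not show that these letters are commoner at the members. Whether the members hold them more often than other genes was not tested.

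Library totals lay between 26725885 and 43116046 counts, and counts of a member in a single library between 86 and 11632. The labels were checked first. LMNB1 fell from 59.7 ± 1.20 (SD, n = 3) CPM, the counts of a gene per 1e6 counts of the library scaled by TMM, in young EV to 2.67 ± 0.281 in siLMNB1, and TERF2, the gene of TRF2, rose from 23.8 ± 1.81 to 195 ± 97.7 in young TRF2 and from 25.0 ± 1.47 to 235 ± 43.6 in senescent TRF2. Markers of fibroblasts were high in every library, with 20033 to 33387 CPM summed over 8 genes, and those of epithelial, endothelial, blood and packaging cells summed to at most 3.50 CPM per list, apart from 11.7 CPM of epithelial markers in young EV replicate 1. The blood list (PTPRC, CD14 and CD3E) summed to 0.0294 to 0.279 CPM in the young and 1.44 to 3.50 in the senescent libraries, the difference lying in CD14, while CD3E was at 0 in every library and PTPRC at no more than 0.0372 CPM in the senescent ones. The endothelial list (PECAM1, VWF and CDH5) summed to 0.742 to 1.28 and 1.27 to 3.4 CPM, mostly from VWF, with CDH5 at no more than 0.127 CPM. Young EV replicate 1, young TRF2 replicate 2 (MKI67, a marker of dividing cells, at 111 CPM against 43.7 and 49.9, and TERF2 at 307 against 128 and 149) and senescent EV replicate 3 stood apart. Across genes, log2 levels relative to young EV rose with GC content, by 0.458 to 0.821 per 10 points of GC in the 6 senescent libraries, senescent EV replicate 3 having the highest slope, and by -0.0049 to 0.13 in the 9 young ones. All 6 senescent libraries are marked as reanalysed from an earlier deposit and no young one is, so that deposit, GC trend and senescence cannot be told apart, and values with offsets that take out GC and length trends in each library are given beside the senescence results. The summed level of 18 genes high in dividing cells was 1305 to 1365 CPM in young EV, 1096 to 1154 in young TRF2, 745 to 771 in siLMNB1, 324 to 370 in senescent EV and 228 to 253 in senescent TRF2. The part of cell division in the values of the members was not tested.

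Per kb of exon, TRIM28 was the most abundant member in young EV cells at 72.2 CPM per kb (± 1.68, SD, n = 3), followed by CBX1 at 46.1 ± 1.83 and CBX3 at 43.1 ± 2.28, which overlapped in their libraries' spread. CBX5 stood at 13.7 ± 0.0975, DNMT1 at 7.77 ± 0.182 and EHMT2 at 6.27 ± 0.122. The other H3K9 methyltransferases were the least abundant, with 3.54 ± 0.373 CPM per kb for SUV39H2, 2.16 ± 0.169 for SUV39H1, 1.94 ± 0.0269 for SETDB1 and 1.88 ± 0.0657 for EHMT1. The order depends on the length used. With the canonical transcript in place of all annotated exons, CBX3 came first at 101 CPM per kb, before TRIM28 at 92.5 and CBX1 at 64.4, and SUV39H1 came last at 2.56. CBX1, CBX3 and CBX5 have 5, 10 and 1 annotated pseudogenes named after them, and the counts on those entries never exceeded 0.387% of the parent gene's count in a library.

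**Figure D1:**
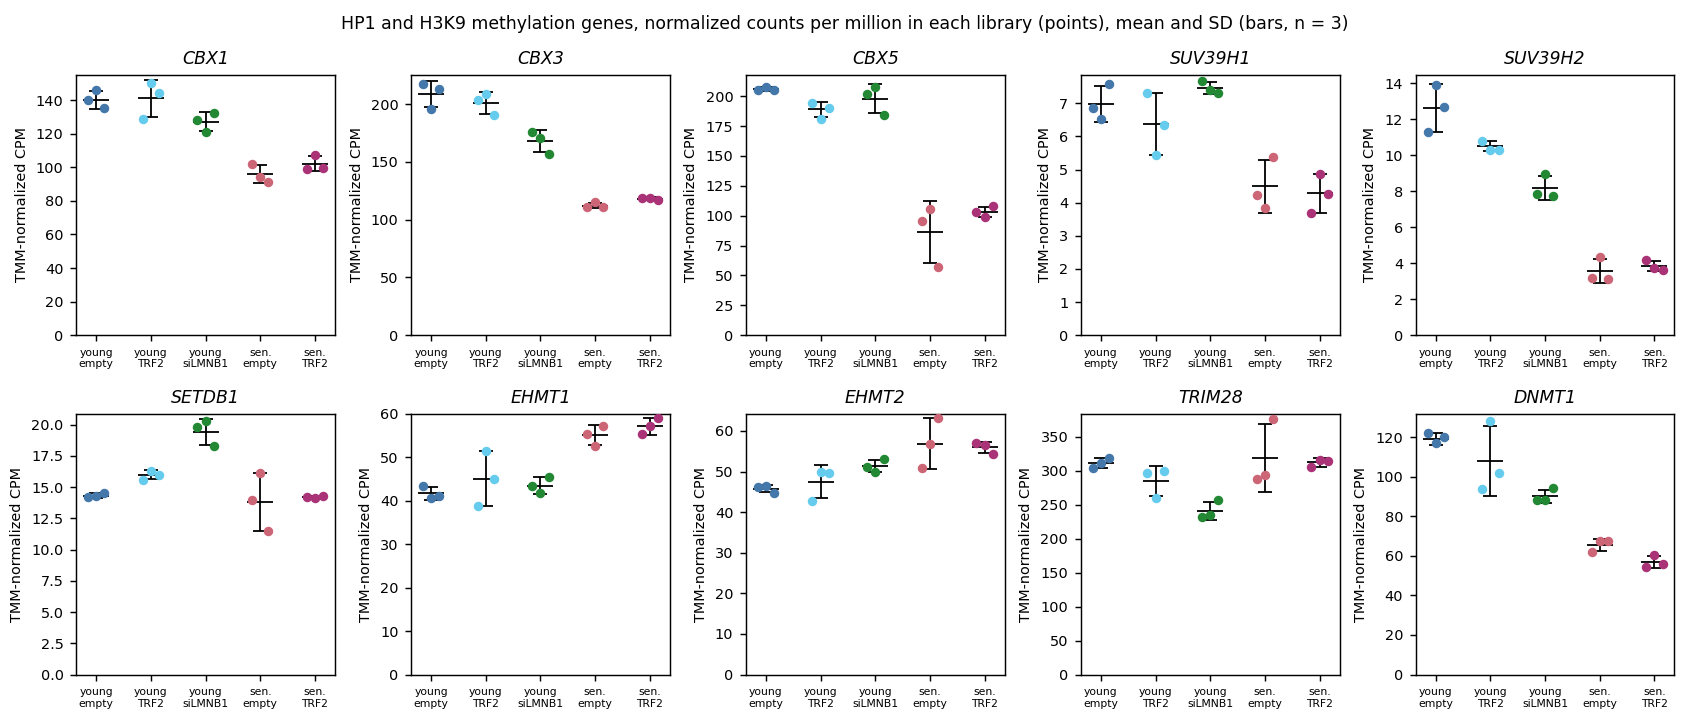
Level of each of the 10 genes (vertical axes from 0, TMM-normalized CPM) in the 15 libraries, by condition (points are libraries, bars the mean and SD of 3). The 3 HP1 genes, both SUV39H genes and DNMT1 lie lower in the senescent than in the young empty-vector libraries, and SUV39H2 falls from a mean of 12.6 to 3.56 CPM.

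The first comparison asked how the machinery of senescent EV differs from that of young EV. In senescent cells 6 of the 10 genes were lower, namely CBX1, CBX3, CBX5, SUV39H1, SUV39H2 and DNMT1, the largest fall being that of SUV39H2 to 0.281 of its young level, EHMT1 and EHMT2 were modestly higher, and SETDB1 and TRIM28 did not pass the test. The 8 of 10 genes called (edgeR's quasi-likelihood test, Benjamini-Hochberg adjusted p below 0.05) stand against 64.7% of all genes tested, 31.9% of all genes being lower and 32.7% higher. The median log2 fold change was -0.59 over the 10 genes and 0.02 over all genes tested. In these 8 genes the 3 senescent and 3 young libraries did not overlap, as in 64.7% of all genes. Only CBX5 and SUV39H2 also passed a fall of 1 on the log2 scale, against 11.8% of all genes. With GC and length offsets 8 genes were called too, all lower (those 6, EHMT2 and TRIM28), against 57.4% of all genes. As the RNA is from bulk cultures, fewer cells with a transcript and less of it per cell cannot be told apart.

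All 3 HP1 paralogs fell. CBX1 (ENSG00000108468, chr17:48070052-48101478 on GRCh38 by GENCODE 44, as for the genes that follow) measured 140, 146 and 135 CPM in young EV and 102, 94.4 and 91.4 in senescent EV, a log2 fold change of -0.55 (SE 0.08, adjusted p = 1.9e-05). The fall was the smallest of the HP1 genes, and every senescent library lay below every young one. CBX3 (ENSG00000122565, chr7:26201162-26213607) went from 217, 196 and 213 CPM to 111, 115 and 111, a log2 fold change of -0.89 (SE 0.07, adjusted p = 3.1e-08). The senescent libraries stood at about the same level as each other and far from the young ones. Of the exon bases of CBX3, 7.60% are shared with HNRNPA2B1 on the opposite strand, and since the strand setting of the counting is not given in the sources used here, reads on them cannot be assigned with certainty. CBX5 (ENSG00000094916, chr12:54230942-54280133) went from 205, 208 and 205 CPM to 95.5, 106 and 57.0, a log2 fold change of -1.26 (SE 0.15, adjusted p = 2.7e-06). The lowest value belongs to senescent EV replicate 3, the library with the steepest GC trend, and without it the log2 fold change was -1.05 (adjusted p = 2.4e-10). With GC and length offsets the 3 log2 fold changes were -0.50, -0.68 and -0.94, all called.

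Within each library, the share of each paralog in the summed HP1 level per kb does not depend on library scaling. CBX1 took 44%, 46.9% and 43.5% in young EV and 53.3%, 50.2% and 52.9% in senescent EV, CBX5 took 13.1%, 13.5% and 13.4% against 10.1%, 11.4% and 6.68%, and CBX3 took 42.9%, 39.6% and 43.1% against 36.6%, 38.4% and 40.4%. The share of CBX1 was thus 7.31 points higher and that of CBX5 3.90 points lower, without overlap between the groups (two-sided exact permutation test, p = 0.1 for each, the smallest p that 3 against 3 allows), whereas that of CBX3 was 3.42 points lower with overlap (exact p = 0.2). With offsets the differences were 4.01 points for CBX1, whose groups then overlapped (exact p = 0.2), -2.64 for CBX5 (exact p = 0.1) and -1.37 for CBX3 (exact p = 0.6). Without senescent EV replicate 3 the difference for CBX5 was -2.53 points. The order of the shares depends on the length used. With canonical transcripts CBX3 had the largest mean share, 55.2% in young and 51.5% in senescent EV, before CBX1 at 35.1% and 41.5%. The differences were then 6.39 points for CBX1, -3.67 for CBX3 and -2.72 for CBX5. In cells with TRF2 senescence went with differences of 5.59 points for CBX1, -3.68 for CBX3 and -1.91 for CBX5 (exact p = 0.1 for each), and siLMNB1 with 1.38 points for CBX5 (exact p = 0.1), -3.13 for CBX3 (exact p = 0.3) and 1.74 for CBX1 (exact p = 0.4). With TRF2 against the empty vector the exact p were 0.2 or above. No adjustment over these comparisons can bring a p below 0.1.

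**Figure D2:**
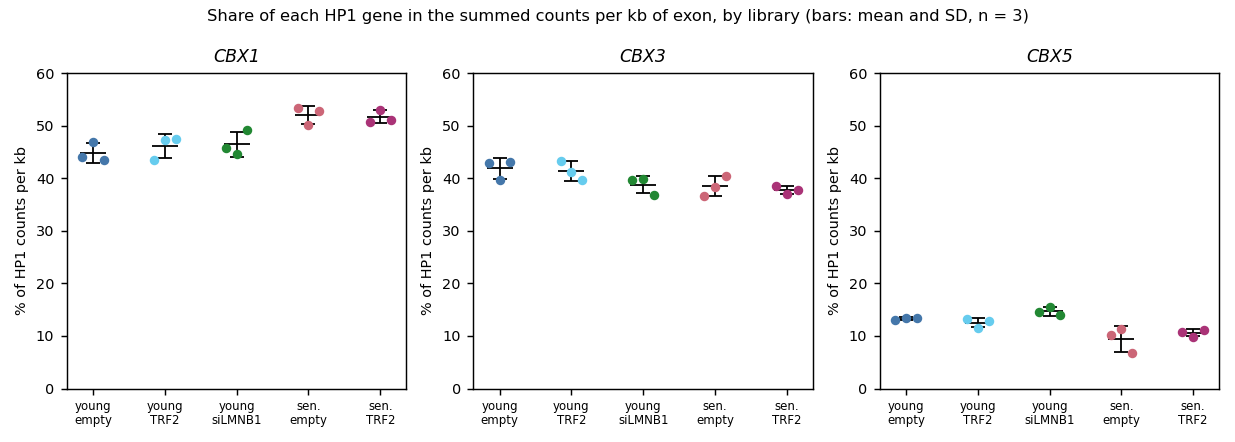
Share of CBX1, CBX3 and CBX5 in the summed HP1 counts per kb of exon (vertical axes from 0, percent) in each library, by condition (points are libraries, bars the mean and SD of 3). The mean share of CBX1 is 44.8% in young and 52.1% in senescent empty-vector cells, and that of CBX5 is 13.3% and 9.42%. With canonical transcript lengths, not drawn, CBX3 has the largest mean share in both, at 55.2% and 51.5%.

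Among the H3K9 trimethylases, both SUV39H genes fell, SUV39H2 the more. SUV39H2 (ENSG00000152455, chr10:14878820-14904315) measured 11.3, 13.9 and 12.7 CPM in young EV and 3.20, 4.33 and 3.14 in senescent EV, a log2 fold change of -1.83 (SE 0.14, adjusted p = 1.2e-08). The highest senescent library was far below the lowest young one. SUV39H1 (ENSG00000101945, chrX:48695554-48709016) went from 6.87, 6.52 and 7.59 CPM to 4.24, 3.85 and 5.38, a log2 fold change of -0.63 (SE 0.16, adjusted p = 0.00200). Its groups were separate but close, and 21.2% of its exon bases lie under an antisense lncRNA, ENSG00000232828. With offsets the log2 fold changes came near each other, at -1.34 for SUV39H2, whose exons are poor in GC (40.9%), and -1.14 for SUV39H1, whose exons are rich in it (57.6%). The ratio of SUV39H1 to SUV39H2 per kb was accordingly 0.616 ± 0.0866 (SD, n = 3) in young EV and 1.44 ± 0.454 in senescent EV without offsets, and 0.616 ± 0.0890 and 0.716 ± 0.167 with them. SETDB1 (ENSG00000143379, chr1:150926263-150964744) measured 14.2, 14.3 and 14.5 CPM against 14, 16.1 and 11.5, a log2 fold change of -0.05 with a 95% interval of -0.28 to 0.18 (adjusted p = 0.682; -0.07 with offsets). The senescent libraries lay on both sides of the young ones.

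EHMT1 (ENSG00000181090, chr9:137618992-137870016) measured 43.3, 40.6 and 41.1 CPM in young EV and 55.4, 52.6 and 57.3 in senescent EV, a log2 fold change of 0.40 (SE 0.09, adjusted p = 0.00145). Its partner EHMT2 (ENSG00000204371, chr6:31879759-31897698) measured 46.1, 46.5 and 44.8 against 50.8, 56.7 and 63.2, a log2 fold change of 0.31 (SE 0.09, adjusted p = 0.00609). The groups did not overlap in either gene, and the ratio of EHMT1 to EHMT2 per kb was 0.30 ± 0.0112 (SD, n = 3) and 0.321 ± 0.0332. Neither rise was seen with GC and length offsets, where EHMT1 was at 0.04 (adjusted p = 0.722) and EHMT2 was lower in senescent cells at -0.17 (adjusted p = 0.0307). Within the fit of these 6 libraries alone, EHMT2 was at 0.30 with an adjusted p of 0.0547.

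TRIM28 (ENSG00000130726, chr19:58544064-58550722), the corepressor that brings SETDB1 and HP1 to KRAB zinc finger targets, measured 304, 311 and 318 CPM in young EV and 287, 294 and 376 in senescent EV, a log2 fold change of 0.04 with a 95% interval of -0.17 to 0.24 (adjusted p = 0.760). The high value is that of senescent EV replicate 3, and the other senescent libraries lay below the young ones. TRIM28 has the highest exon GC content of the members, at 62.5%, and with offsets its log2 fold change was -0.81 (adjusted p = 2.4e-08). The direction and the call thus differed between the fits with and without offsets. DNMT1 (ENSG00000130816, chr19:10133342-10231286) went from 122, 117 and 120 CPM to 62.0, 67.4 and 67.3, a log2 fold change of -0.87 (SE 0.10, adjusted p = 1.5e-06), or -1.24 with offsets. Every senescent library had little more than the midpoint between 0 and the young level.

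In cells that expressed TRF2 the same question gave 8 of 10 genes called (6 lower and 2 higher), against 58.3% of all genes tested, and with offsets 7 called lower and 0 higher, against 55.3%. In all 10 genes the groups did not overlap, as in 71.4% of all genes. The log2 fold changes were -0.47 for CBX1, -0.77 for CBX3, -0.87 for CBX5, -0.57 for SUV39H1, -1.44 for SUV39H2 and -0.93 for DNMT1, with adjusted p between 1.6e-07 (SUV39H2) and 0.00436 (SUV39H1). SUV39H2 measured 10.8, 10.3 and 10.3 CPM in young TRF2 and 4.17, 3.73 and 3.65 in senescent TRF2, again with no overlap. CBX5 measured 194, 181 and 190 against 103, 98.7 and 108 CPM, and no senescent library stood apart from the other two here. DNMT1 measured 93.9, 128 and 102 against 54.4, 60.2 and 55.7 CPM. The high young value is that of replicate 2, the library with the highest MKI67. SUV39H2 alone passed a fall of 1 on the log2 scale (12.1% of all genes did), joined by DNMT1 at -1.03 when young TRF2 replicate 1 was left out. EHMT1 (0.34, adjusted p = 0.00521) and EHMT2 (0.24, adjusted p = 0.0323) were higher, and again neither was with offsets (0.01 and -0.10, adjusted p = 0.904 and 0.194). TRIM28 measured 296, 260 and 299 CPM against 305, 316 and 314 (log2 fold change 0.13, adjusted p = 0.267), and with offsets it was at -0.47 (adjusted p = 1.7e-05).

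**Figure D3:**
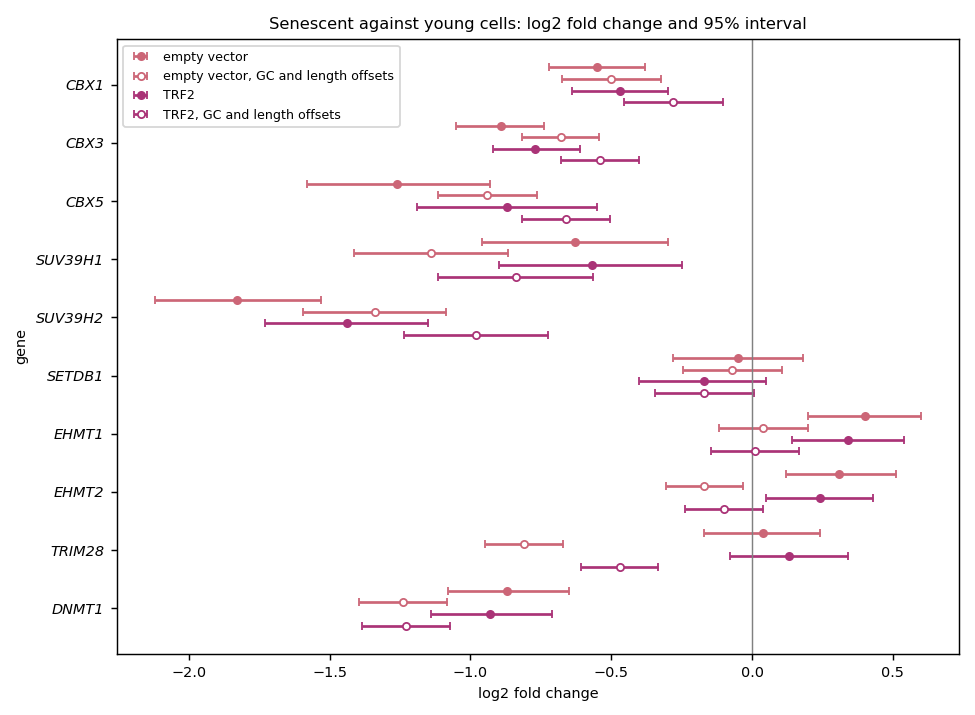
Log2 fold change of each gene (horizontal axis) in senescent against young cells, in cells with the empty vector and with TRF2; filled points are without and open points with GC and length offsets, and lines are 95% intervals (normal ones for open points). CBX1, CBX3, CBX5, SUV39H1, SUV39H2 and DNMT1 lie below 0 in all 4 fits, whereas TRIM28 goes from 0.04 to -0.81 and EHMT2 from 0.31 to -0.17 in empty-vector cells when offsets are used.

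Knock-down of LMNB1 asked which of these genes differ when lamin B1 is lowered in young cells. MKI67 was lower in these cells too, at 23.6 ± 5.98 CPM (SD, n = 3) against 61.5 ± 6.60 in young EV. Whether they had begun to arrest was not tested. CBX3, SUV39H2, DNMT1 and TRIM28 fell and SETDB1 rose, all by less than 1 on the log2 scale, so that 5 of 10 genes were called against 32.5% of all genes tested. In 7 genes the groups did not overlap, as in 57.4% of all genes. The median log2 fold change of the 10 genes was -0.10, against 0.04 for all genes. These libraries were compared with the same young EV libraries as the senescent ones, so the values of both comparisons share their control. SUV39H2 measured 7.83, 8.94 and 7.73 CPM in siLMNB1, below all young EV libraries, a log2 fold change of -0.63 (SE 0.13, adjusted p = 0.00142). It was the one member past 0.58 on the log2 scale, against 8.06% of all genes that passed it downwards, and it was at -0.55 without young EV replicate 2. DNMT1 measured 88.1, 88.2 and 94.0 CPM (log2 fold change -0.41, SE 0.10, adjusted p = 0.00493) and CBX3 176, 171 and 157 (-0.31, SE 0.07, adjusted p = 0.00369), both without overlap with young EV.

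TRIM28 was lower after LMNB1 knock-down, with 231, 235 and 256 CPM (log2 fold change -0.37, SE 0.10, adjusted p = 0.00809). SETDB1, which did not pass the test in senescent cells, measured 19.8, 20.3 and 18.3 CPM, above every library of the other conditions (log2 fold change 0.44, SE 0.11, adjusted p = 0.00471). Of its exon bases 12.9% lie opposite CERS2. All 5 calls held with offsets, in a fit that called 39.1% of all genes. CBX5 measured 202, 208 and 184 CPM, with a log2 fold change of -0.06 and a 95% interval of -0.38 to 0.26, and SUV39H1 measured 7.67, 7.39 and 7.32 CPM, at 0.09 with an interval of -0.22 to 0.41. Both overlapped young EV. CBX1 (-0.15, adjusted p = 0.173) and EHMT2 (0.17, adjusted p = 0.171) passed only in a fit of these 6 libraries alone, and EHMT1 was at 0.06. The level of the 18 dividing-cell genes also moved with this treatment, with 16 of them called lower.

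TRF2 expression changed none of the 10 genes by this test, in young cells (0.177% of all genes called), in senescent cells (11.3% called) or in the interaction of TRF2 with senescence (1.13% called). DESeq2 likewise called 0 of them in each. At an unadjusted p below 0.05 the counts were 1 in young cells, SUV39H2 at -0.27, and 0 in senescent cells and in the interaction. The shares of all genes at that level are not given here. Groups with and without TRF2 did not overlap in 4 of the 10 genes in young cells (23.6% of all genes) and in 2, CBX3 and DNMT1, in senescent cells (26.8%). In senescent cells CBX3 measured 119, 119 and 117 CPM with TRF2 against 111, 115 and 111 without it, a log2 fold change of 0.08 with a 95% interval of -0.08 to 0.23. CBX5 was at 0.26 (interval -0.06 to 0.58), and at 0.04 without senescent EV replicate 3. DNMT1 measured 54.4, 60.2 and 55.7 CPM against 62.0, 67.4 and 67.3, at -0.21 with an interval of -0.42 to 0.00 (adjusted p = 0.185). The interaction is the difference between the senescence effects with and without TRF2. In it SUV39H2 was at 0.39 (interval -0.02 to 0.80, adjusted p = 0.341). CBX5 was at 0.39 (interval -0.07 to 0.84, adjusted p = 0.385), and at 0.18 without senescent EV replicate 3. These intervals leave room for changes of the size seen with LMNB1 knock-down in some genes, and a missed threshold does not show that levels were equal.

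**Figure D4:**
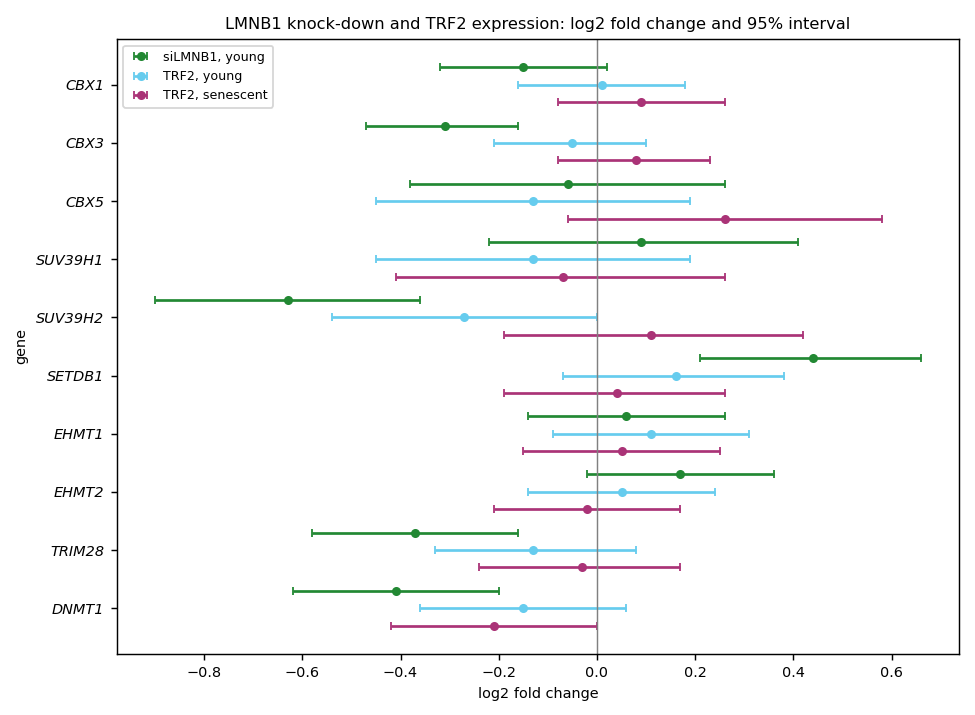
Log2 fold change (horizontal axis, 95% intervals) of each gene with siLMNB1 in young cells and with TRF2 in young and in senescent cells, each against the empty vector. With siLMNB1, SUV39H2 is at -0.63 and SETDB1 at 0.44, and none of the genes passed the test with TRF2.

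A list of 40 other genes of the same processes, all of them tested, were followed in 5 roles. In senescent EV cells 24 were lower, 5 higher and 11 not called, with a median log2 fold change of -0.42 against 0.02 over all genes. Over all genes 64.7% were called, 31.9% lower and 32.7% higher. With offsets 21 were lower and 8 higher (57.4% of all genes called), with a median of -0.26. In cells with TRF2, 22 were lower and 7 higher in senescence (58.3% of all genes called), and 17 and 7 with offsets (55.3%). With siLMNB1 7 were lower and 9 higher (32.5% of all genes called), with a median of 0.15 against 0.04 over all genes. Offsets gave 8 and 9 (39.1% of all genes called), with a median of 0.10. TRF2 changed 0 of the 40 in young cells, where 0.177% of all genes were called, and 0 by DESeq2. At an unadjusted p below 0.05 there were 4, and the share of all genes at that level is not given here.

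Among 10 genes listed as HP1 partners, not all of which need bind HP1 directly, 8 fell and 1 rose in senescent EV cells. Of all genes 31.9% fell and 32.7% rose. With offsets 7 of the 10 fell and 2 rose, where 57.4% of all genes were called. LBR, the lamin B receptor, an inner nuclear membrane protein that binds HP1, measured 86.6, 81.3 and 84.6 CPM in young EV, 30.0, 29.8 and 18.5 in senescent EV and 22.5, 23.3 and 23.2 in siLMNB1. Both groups lay far below the young control, at log2 fold changes of -1.69 (SE 0.14, adjusted p = 2.9e-08; -1.41 with offsets) and -1.87 (SE 0.14, adjusted p = 9.3e-08). CHAF1B, a subunit of the CAF-1 chaperone that places histones behind the replication fork, fell by 1.76 on the log2 scale in senescence (SE 0.14, adjusted p = 2.5e-08; -1.70 with offsets) and by 0.41 with siLMNB1 (adjusted p = 0.0255). KMT5C, which trimethylates lysine 20 of histone H4 and is recruited by HP1, was the one that rose, from 1.67, 1.61 and 1.97 CPM to 4.42, 7.52 and 10.6 in senescent EV and to 3.97, 3.31 and 3.76 in siLMNB1. Its log2 fold changes were 2.11 (SE 0.25, adjusted p = 2.1e-06; 1.12 with offsets) and 1.07 (SE 0.26, adjusted p = 0.00435).

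Among 8 methyltransferases and cofactors, 5 fell and 1 rose in senescent EV (64.7% of all genes called). With offsets 4 fell and 1 rose (57.4% of all genes called), the median going from -0.68 to -0.24. PRDM16, an H3K9 monomethyltransferase, had 105 counts over the 3 young EV libraries and 2 over the 3 senescent ones, a ratio of 49.7 with a 95% counting interval of 13.4 to 415. Its log2 fold change was -5.43 (95% interval -6.74 to -4.12 from the spread between libraries). In cells with TRF2 it was smaller, at -2.18 (interval -3.12 to -1.23). WIZ, a zinc finger partner of EHMT1 and EHMT2, rose from 58.3, 56.2 and 61.5 CPM to 134, 138 and 132, a log2 fold change of 1.20 (SE 0.08, adjusted p = 1.7e-09) that was 0.31 with offsets. MECOM, a relative of PRDM16, was at -0.77 (SE 0.17, adjusted p = 0.00107; -0.60 with offsets). With siLMNB1 none of the 8 was called, where 32.5% of all genes were. At an unadjusted p below 0.05 there was 1, and the share of all genes at that level is not given here. Of the 4 genes of the HUSH complex and its effector MORC2, which maintain H3K9 trimethylation through SETDB1, TASOR and PPHLN1 fell both in senescent EV (-0.49 and -0.38, adjusted p = 0.0110 and 0.00293) and with siLMNB1 (-0.54 and -0.28, adjusted p = 0.0131 and 0.0377). In senescence neither was called with offsets (0.01 and 0.04), where MPHOSPH8 was higher at 0.35 (adjusted p = 0.0133). In cells with TRF2 none of the 4 was called (58.3% of all genes were), nor at an unadjusted p below 0.05.

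Of the 11 H3K9 demethylases 4 were lower and 2 higher in senescent EV, where 64.7% of all genes were called. With offsets 4 were lower and 3 higher (57.4% of all genes called). KDM4A fell from 47.1, 49.2 and 55.6 CPM to 19.9, 18 and 15.9 (log2 fold change -1.50, SE 0.10, adjusted p = 2.9e-09), while its paralog KDM4C rose from 5.30, 6.25 and 7.52 to 17.4, 17.4 and 14.3 (1.36, SE 0.14, adjusted p = 5.0e-07). Each pair of groups was well apart, and both directions held with offsets (-1.56 and 1.65). Of the exon bases of KDM4A, 40.2% are shared with an overlapping protein-coding entry, ENSG00000284989, on the same strand. KDM4B, the other demethylase that was higher, rose from 38.7, 39.3 and 38.0 CPM to 83.2, 87.0 and 81.2. Its log2 fold change was 1.12 (SE 0.07, adjusted p = 1.9e-09), and 0.35 with offsets. KDM4D, at 0.739 ± 0.110 CPM in young EV, was at -1.26 (SE 0.45, adjusted p = 0.0221; -1.15 with offsets). With siLMNB1, 4 of the 11 demethylases rose and none fell, where 32.5% of all genes were called. They were KDM3A at 0.56 (adjusted p = 0.00203), PHF8 at 0.40 (0.00910), PHF2 at 0.36 (0.0146) and KDM4A at 0.28 (0.0370). With offsets PHF2 and KDM4A were lost, and 3 of the 11 were called higher in all, where 39.1% of all genes were called.

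In the DNA methylation group 5 of 7 fell and 1 rose in senescent EV (31.9% and 32.7% of all genes did). With offsets 6 fell and 1 rose (57.4% of all genes called). UHRF1, which guides DNMT1, fell with it, from 84.3, 82.7 and 85.9 CPM to 28.2, 33.1 and 27.8 (log2 fold change -1.50, SE 0.09, adjusted p = 9.3e-10; -1.91 with offsets), and stood at 61.4, 59.3 and 69.2 in siLMNB1 (-0.41, adjusted p = 0.00226). The TET dioxygenases, which oxidize 5-methylcytosine, fell as well, TET1 by 2.34 (SE 0.23, adjusted p = 2.7e-07) and TET2 by 1.20 (SE 0.19, adjusted p = 4.0e-05) on the log2 scale (-2.06 and -0.85 with offsets). With siLMNB1 3 genes of the group rose and 2 fell, where 32.5% of all genes were called. With offsets 3 rose and 2 fell (39.1% of all genes called). Those that rose without offsets were TET3 at 1.11 (adjusted p = 3.5e-04), DNMT3A at 0.63 (4.0e-04) and DNMT3B at 0.52 (0.0452, and 0.0671 with offsets).

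Between senescent TRF2 and senescent EV cells 9 of the 40 genes were called, 6 higher and 3 lower with TRF2, against 11.3% of all genes. The senescent TRF2 cells had also gone through more population doublings. TET1 was higher, with 1.82, 1.72 and 1.60 CPM against 0.930, 0.815 and 0.421 (log2 fold change 1.26, SE 0.24, adjusted p = 0.00450), and CHAF1A, the large subunit of CAF-1, was lower (-0.95, SE 0.15, adjusted p = 9.0e-04), as were CHAF1B (-0.64, adjusted p = 0.0150) and KDM4D (-2.50, adjusted p = 0.0232, at 0.0520 against 0.308 CPM). The count depends on single libraries and on the fit. It was 19 without senescent EV replicate 1, 2, 3 and 4 when senescent TRF2 replicate 1, 2 or 3 was left out, and 0 when the senescent libraries were fitted alone. Of the 18 genes high in dividing cells, 16 were also lower with TRF2 here. The interaction was called in 0 of the 40 (1.13% of all genes called), and in 1 by DESeq2, CHAF1A. At an unadjusted p below 0.05 there were 8, and the share of all genes at that level is not given here.

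**Figure D5:**
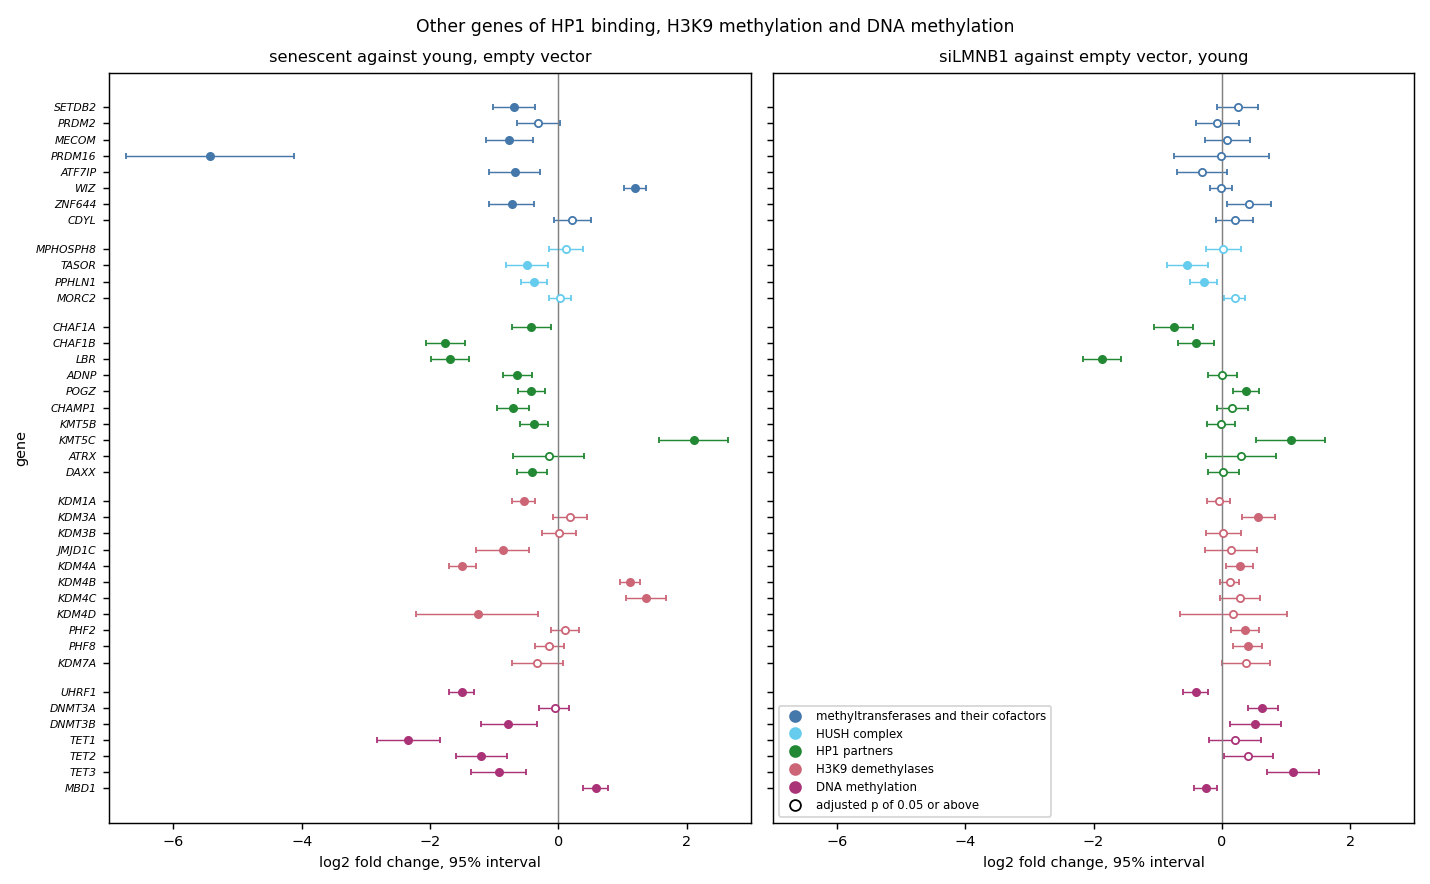
Log2 fold change (horizontal axes, 95% intervals) of the 40 other genes by role, in senescent against young empty-vector cells and in siLMNB1 against empty-vector young cells; filled points passed an adjusted p of 0.05. In senescence 24 lie lower and 5 higher, with siLMNB1 7 lower and 9 higher, and LBR is low in both, at -1.69 and -1.87.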

How the data were processed

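RNA-seq counts of 15 libraries in 5 conditions were used. Per the submitters' processing notes, Trimmomatic, STAR and GRCh38 served for trimming and mapping. The authors deposited whole-number counts per gene without normalization; the strand setting and annotation release of the counting are not given in the sources used here. Every column was mapped to a sample through its name. Total counts per library lay between 26725885 and 43116046, which, with 3 libraries a condition, sets the precision; counting intervals cover counting error only.

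Genes were named with GENCODE 44, which lacks 324 genes of the table. Counts were scaled by TMM, filtered by filterByExpr to 15799 genes and fitted in edgeR 4.0.16 (R 4.3.3) with 1 mean per condition over all 15 libraries. Each contrast was tested by quasi-likelihood F and adjusted by Benjamini-Hochberg across those genes. SEs are the fold change divided by the root of F. Fold thresholds of 1 (senescence) and 0.58 (siLMNB1) follow the study's methods. GC and length offsets came from loess curves (span 0.3, prior count 1) per library, set against the mean of young EV. HP1 shares were compared by two-sided exact permutation tests. DESeq2 1.42.0, size factors, no filter, a replicate block, the compared libraries alone and each library left out were alternatives. The fit was tested on simulated counts. Tables and figures were made in Python 3.11.15 with numpy 2.4.6, pandas 2.3.3, scipy 1.17.1 and matplotlib 3.10.9. Promoters are from RefSeq (GRCh38.p14).

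The members and all gene lists were chosen with earlier results of these data known. Besides the 10 members, LMNB1, TERF2 and MKI67, named genes were up to 3 per role with the largest change among those called, and without overlap between groups, in senescence with the empty vector, and single genes where a count was 5 or fewer. Replicates of a group differed by more than sampling noise (chi-square of at least 3.79 per degree of freedom). Same-numbered libraries did not deviate together.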

Additional observations from a re-analysis of the deposited data

How the results depend on the processing

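Over all alternatives, 880 of 900 values of a member kept their side of the threshold and, where called, their direction; 10 lost a call, 2 gained one and 8 reversed, and of 600 values called in neither fit 48 changed sign. All 8 reversals came with GC and length offsets, without or with a replicate block: EHMT2 to -0.17 and TRIM28 to -0.81 in senescence with the empty vector, and to -0.10 and -0.47 with TRF2. The calls lost were EHMT1 with offsets (0.04 and 0.01) and EHMT2, at 0.30 in the compared libraries alone with the empty vector and, with TRF2, at 0.24 without the filter and at 0.16 to 0.25 without single libraries (young TRF2 replicate 1 or any senescent TRF2 library). Members past the fold threshold numbered 1 to 2 with TRF2 and 0 to 1 with siLMNB1 when single libraries were left out. Without the 3 libraries that stood apart, an alternative chosen after seeing the data, the counts of members called were 8, 8, 5, 0, 0 and 0 (senescence with the empty vector, senescence with TRF2, siLMNB1, TRF2 in young cells, TRF2 in senescent cells and interaction), the same as with them.

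Of the other 40 genes, the 28 whose exons share no base with another gene, an alternative chosen after seeing the data, held 18 called in senescence with the empty vector (3 higher, 15 lower), fewer genes being tested. Of all genes tested, 64.7% were called there. With siLMNB1 25 were called in the compared libraries alone and 11 to 13, against 16, with single libraries left out. For these alternative fits and those that follow, the shares of all genes called are not given here, so their counts say nothing particular to the list. With TRF2 in senescent cells 0 were called in the compared libraries alone, 15 with offsets, 14 with block and offsets, and 2 to 19 with single libraries left out. In the interaction 2 were called without the filter, 1 with the block, 1 with offsets, 1 with both, 1 by DESeq2 and 0 to 6 with single libraries left out; the cause was not tested. The differences in HP1 share became 4.01 points (CBX1) and -1.37 (CBX3) with offsets, and 0.817 (CBX3, reversed) and -8.24 (CBX5) without division by length, which gives the longest gene more weight.

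Replicate numbers did not pair the libraries (correlations of same-numbered deviations from -0.0936 to 0.0602). With the replicate block, 8, 8, 5, 0, 0 and 0 members were called in the same comparisons, as without it. The lowest count of a member in a library was 86; depth was not varied.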
